A study of Mus musculus with 4 samples.

Results

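Defensins are small cationic peptides, held together by disulfide bonds between cysteines, that disrupt the membranes of microbes. In the mouse, the alpha defensins (cryptdins, the *Defa* genes) are products of Paneth cells at the base of the small intestinal crypts, whereas the beta defensins (*Defb* genes) are made by epithelia of the skin, airways, kidney and gut, and many of them by the epididymis. Both families are found as clusters of tandem copies in the genome. An exception to their restriction to such epithelia is *Defb1*, which is also expressed by hepatocytes. All protein-coding genes of the NCBIM37 (mm9) annotation whose symbol begins with *Defa* or *Defb* were taken, 53 of 22367, of which 12 are alpha and 41 are beta defensin genes.

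Their positions come from DamID on primary hepatocytes, isolated from WT animals and from *Tm7sf2*-KO animals. In DamID, a bacterial methylase (Dam) is tethered to LaminB1, so that GATC sites close to the nuclear envelope (NE) become methylated, and an unfused Dam gives the background for accessibility. *Tm7sf2* encodes NET47, a transmembrane protein of the NE and endoplasmic reticulum with a role in sterol synthesis. The KO animals were *Tm7sf2*-/-, the WT animals *Tm7sf2*+/+, and both were on a C57BL/6 background. Hepatocytes of mice aged 12 to 16 weeks were incubated for 24 h with lentivirus for Dam-LaminB1 (WT Dam-LaminB1 and KO Dam-LaminB1) or for Dam alone (WT Dam only and KO Dam only) and collected, by the methods of the study, 60 h after transduction, and each of the 4 libraries held the pooled DNA of 4 mice. All 4 groups thus carry a lentiviral construct, in serum-free culture with dexamethasone, insulin and EGF, where only part of the cells is transduced. The deposited lists hold the positions of lamina-associated domains (LADs), 8107 in WT and 16076 in KO, and of regions that differ between them (DRs), 7787 found as LAD only in WT and 8208 only in KO, with no score and no read number. With 1 library pair per genotype there is no replicate error, and no difference between WT and KO given here could be tested. The study gives fewer usable reads for KO than for WT, so depth and genotype cannot be told apart. The lists hold no RNA measurement, so hepatocyte markers could not be checked in them, and the expression data of the study, which include liver RNA of both genotypes, are not analysed here.

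Each gene was classed by its span. PI genes (peripheral in WT, internal in KO) overlap a WT-only DR, IP genes (internal in WT, peripheral in KO) overlap a KO-only DR, AMB genes overlap both, and among the rest PP genes are in a LAD in both genotypes and II genes are not. Most defensin genes were at the periphery in both genotypes, and the members of a cluster were placed alike. Of the 53 genes, 36 (67.9%) were PP, against 17.9% of all protein-coding genes, and 16 (30.2%) were II, against 56.6%. A single gene was PI (1.89%, against 5.43% of all genes), *Defb1*, the beta defensin that epithelia express constitutively. None was IP or AMB, classes that hold 17.1% and 2.96% of all genes. All 12 alpha defensin genes were PP, while the 41 beta defensin genes were divided into 24 PP, 16 II and 1 PI. Genes of a cluster share LADs, so these are counts over neighbors and not over independent genes.

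**Figure D1:**
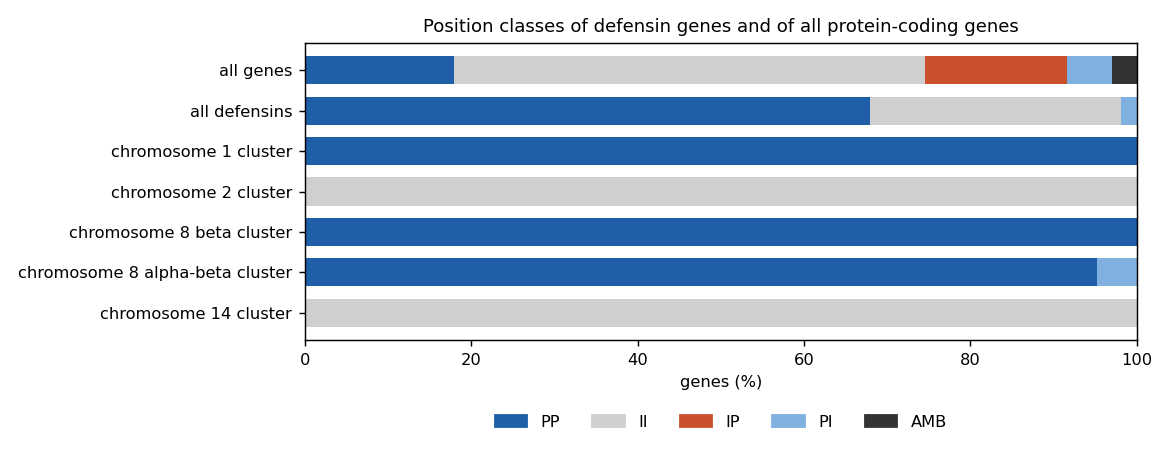
Percentage of genes in each position class (horizontal axis) for all 22367 protein-coding genes, all 53 defensin genes and the defensin genes of each cluster. The clusters on chromosomes 1 and 8 are PP but for 1 gene of 21 in the alpha-beta cluster, which is PI, and those on chromosomes 2 and 14 are II.

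The placement was complete for almost every gene. The whole span of 36 members was inside a LAD in both genotypes, which held for 15.7% of all protein-coding genes. Another 16 members had no base in a LAD in either genotype, against 56.0% of all genes. The transcription start was in a LAD for the same number of members, 36 of 53, in WT and in KO, whereas over all genes this share was 22.7% in WT and 32.8% in KO. *Defb1* was the only member whose covered share differed between the genotypes. Together the member spans (203 kb) were covered by LADs to 53.0% in WT and 49.6% in KO. The genes are short, with a median span of 0.970 kb for alpha and 3.16 kb for beta defensin genes compared with 15.4 kb for all protein-coding genes; whether their length bears on the complete placement was not tested. Of the 53 genes 48 have 2 exons and 5 have 3 exons in the transcript used, with 171 to 558 coding bases (median 231).

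With at most 500 kb between neighbors the members fell into 5 clusters. *Defb18* and *Defb41* are on chromosome 1 (18226554 to 18255219, 28.7 kb). Chromosome 2 carries 11 beta defensin genes from *Defb23* to *Defb25* (152284791 to 152448789, 164 kb). On chromosome 8, a beta cluster of 14 genes from *Defb40* to *Defb7* (18974940 to 19497775, 523 kb) is followed by an alpha-beta cluster of 12 alpha and 9 beta defensin genes from *Defa21* to *Defb13* (22165224 to 23059322, 894 kb). The last 5 genes, from *Defb48* to *Defb42*, are on chromosome 14 (63596361 to 63676986, 80.6 kb). Taken as stretches of 1690 kb in all, the clusters were covered by LADs to 79.7% in WT and 77.2% in KO.

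**Figure D2:**
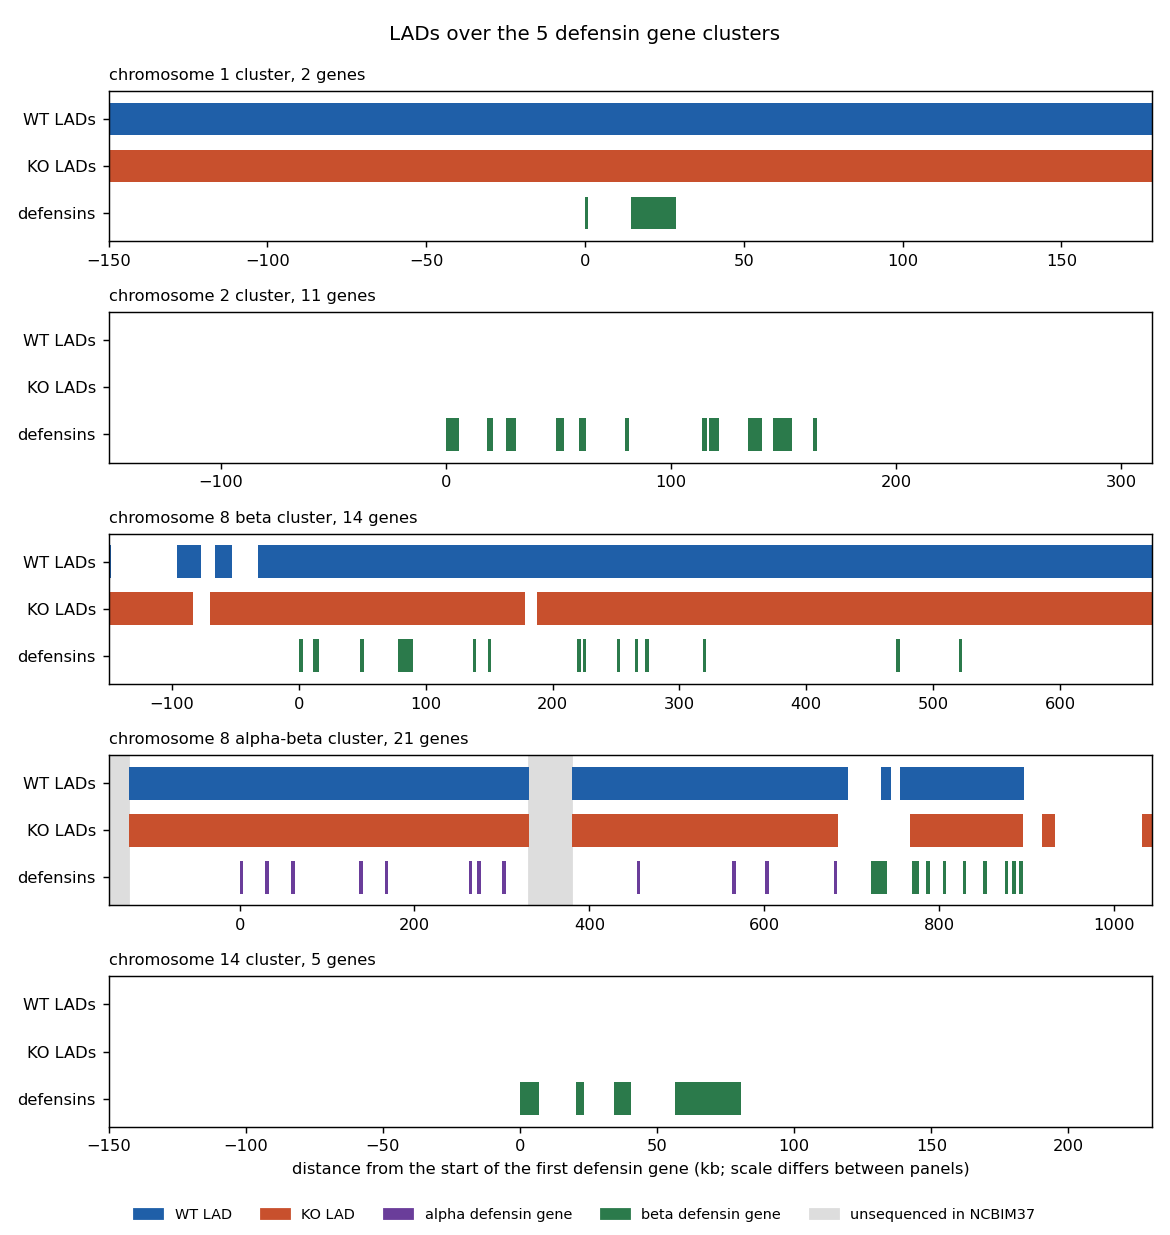
Maps of the 5 clusters with 150 kb on each side. The horizontal axis is the distance in kb from the start of the first defensin gene, with bars for WT LADs, KO LADs and defensin genes, and grey for bases that NCBIM37 leaves unsequenced; both clusters without a LAD (chromosomes 2 and 14) have none in the flanks drawn, and *Defb30* and *Defb42* on chromosome 14 are drawn as 1 bar because they share 2970 bases.

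The alpha defensin genes are near copies of each other, also upstream of the gene. The 200 bases before the annotated start were read from NCBIM37 for each member, and 4 of them are shown 5′ to 3′ because they show the likeness of the alpha genes and how *Defb1* and its neighbor *Defb50* differ from them. Capitals mark GATC, the site that Dam methylates, and TATAAA on either strand (TTTATA where it lies on the other strand), the core of a TATA box.
Defa21, chr8:22165024-22165223, plus strand: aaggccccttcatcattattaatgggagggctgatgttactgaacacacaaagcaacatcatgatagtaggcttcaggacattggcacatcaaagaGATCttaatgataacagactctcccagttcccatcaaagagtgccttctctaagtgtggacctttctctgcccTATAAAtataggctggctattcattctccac
Defa24, chr8:22844766-22844965, plus strand: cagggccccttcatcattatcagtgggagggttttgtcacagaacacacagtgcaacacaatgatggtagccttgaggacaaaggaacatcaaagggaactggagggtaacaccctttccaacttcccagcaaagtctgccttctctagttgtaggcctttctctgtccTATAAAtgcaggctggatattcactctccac
Defb1, chr8:22886871-22887070, plus strand: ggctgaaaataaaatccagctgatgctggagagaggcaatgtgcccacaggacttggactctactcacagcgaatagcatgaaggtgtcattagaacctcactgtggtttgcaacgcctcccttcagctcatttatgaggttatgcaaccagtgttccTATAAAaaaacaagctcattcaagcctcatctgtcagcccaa
Defb50, chr8:22933811-22934010, plus strand: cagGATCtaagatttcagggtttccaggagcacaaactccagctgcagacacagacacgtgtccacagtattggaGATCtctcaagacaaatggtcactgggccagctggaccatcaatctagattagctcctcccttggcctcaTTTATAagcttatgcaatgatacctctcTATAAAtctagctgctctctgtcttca
The 200 bases before *Defa22* are identical to those of *Defa21*. Over the 66 pairs of alpha defensin genes, the median identity was 72.0% upstream (56.5 to 100) and 83.7% in the coding sequence (62.7 to 100). *Defa3* and *Defa17* were identical in coding sequence, as were *Defa23* and *Defa-rs7*. Beta defensin genes were less alike, with a median of 50.9% in coding sequence over 820 pairs (23.7 to 91.5). Identity was counted over the longer sequence of a pair, so pairs of unlike length score low. Between alpha and beta defensin genes the coding median was 46.5% over 492 pairs. The beta defensin genes closest to *Defb1* were *Defb2* in coding sequence (63.0%) and *Defb50* upstream (62.0%). All 11 pairs with at least 95% identical coding bases were alpha pairs. TATAAA, searched on both strands, was present in this window in 17 of 53 members (32.1%), compared with 10.1% of all protein-coding genes, and in 10 of 12 alpha but 7 of 41 beta defensin genes. CCAAT, the core of the CCAAT box, was found in 27 members (50.9%) and in 30.6% of all genes. By kind it was in 10 of 12 alpha and 17 of 41 beta defensin genes. GATC was found in 22 members (41.5%) and in 32.9% of all genes.

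Sequence that occurs more than once limits what DamID can read. The identities above cover coding and upstream bases only, and the likeness of the bases between the genes was not measured. Fragments are taken here to be read from their ends at GATC sites, which the methods of the study do not state. An end whose bases also occur at another site cannot then be placed uniquely. Of the ends in the assembly, 80.2% were unique over their first 36 bases. The clusters on chromosomes 1, 2 and 14 were above this, at 93.2%, 93.7% and 95.8%. The beta cluster of chromosome 8 stood at 68.0% and the alpha-beta cluster at 29.7%. Within the latter, the stretch that holds the alpha defensin genes (681 kb) had 15.9% unique ends and the stretch of the beta defensin genes after them, *Defb1* to *Defb13* (172 kb), had 74.6%. With 50 bases these became 24.5% and 81.5%, against 84.1% over the assembly. The read length and the treatment of reads that map to several places are not given in the sources used here.

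**Figure D3:**
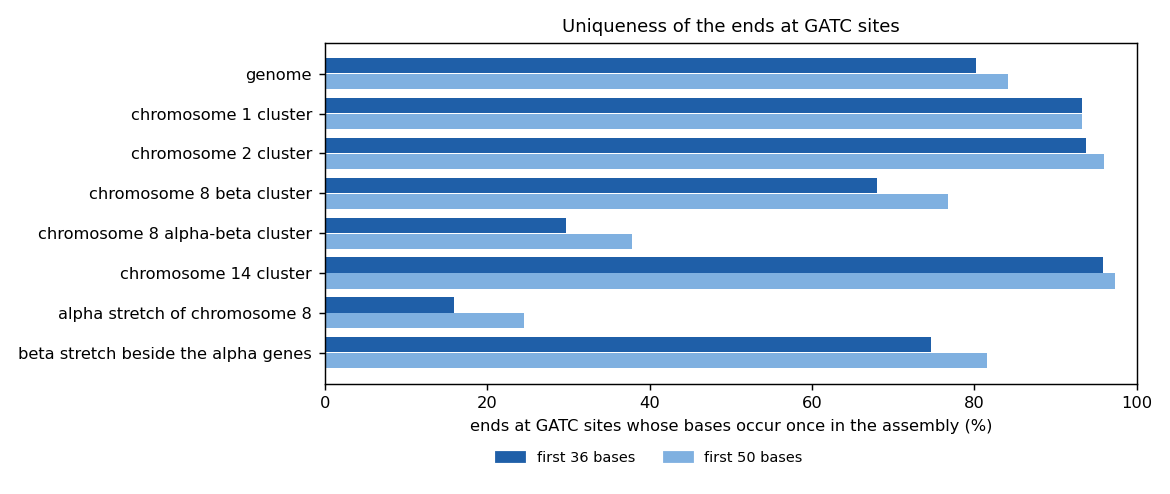
Percentage of ends at GATC sites (horizontal axis) whose first 36 or 50 bases occur once among all such ends of NCBIM37, for the genome, the 5 clusters and both stretches of the alpha-beta cluster. The alpha stretch is lowest, at 15.9% and 24.5%.

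Inside single genes the sites were few. A member spans a median of 8.0 GATC sites (0 to 50), with 3 to 5 in each alpha defensin gene. Of the 98 ends within the 12 alpha genes 16 (16.3%) were unique, and 6 of these genes (*Defa23*, *Defa-rs7*, *Defa3*, *Defa5*, *Defa20* and *Defa17*) had none. Of the 1044 ends within the beta genes 869 (83.2%) were unique, and every beta gene with a site had at least 1. *Defb18* has no GATC site, so its place is that of the fragment around it. If reads start at these ends, the PP class of the alpha defensin genes therefore rests largely on flanking fragments and on the segments that join them. Whether reads from other copies contributed was not tested.

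The alpha defensin genes were in the same LADs in both genotypes. Those from *Defa21* up to the unsequenced stretch inside the cluster were in a LAD of 457 kb (22038714 to 22495821) with the same borders in WT and KO. Both of its borders are edges of unsequenced stretches, one of 2000 kb before it and one of 50 kb after it. The last 4, from *Defa20* to *Defa24*, were in a LAD that begins after that gap at 22545822 and was 315 kb long in WT and 304 kb in KO. Counting sequenced bases, the alpha stretch was in LADs to 100% in both genotypes, and the whole alpha-beta cluster to 94.3% in WT and 90.4% in KO. *Defa24*, the last alpha gene, was 14.8 kb from the border in WT and 4.16 kb in KO. The 14 other protein-coding genes inside the alpha-beta cluster were all PP as well, in the same LADs as the alpha genes. They are set apart by symbol alone, and whether any of them is a defensin gene under another symbol was not checked.

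*Defb1* was the only one of the 9 beta defensin genes beside them whose LAD share differed between genotypes, and the LADs on both sides of it were shorter in KO. From *Defb50* to *Defb13*, 8 genes were in a LAD of 143 kb in WT (22920206 to 23062716) and of 130 kb in KO (22931460 to 23061148), which was 11.3 kb shorter at the side of *Defb1*. *Defb50* was thereby 13.8 kb from the border in WT and 2.55 kb in KO, and *Defb13*, at the far end, 3.39 and 1.83 kb. The beta stretch was in LADs to 87.3% in WT and 74.2% in KO. The cluster held 3 WT-only DRs, of 10.7 kb (22850105 to 22860769), 11.2 kb (22898764 to 22909970) and 11.3 kb (22920206 to 22931459). No KO-only DR lay inside the cluster.

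*Defb1* (ENSMUSG00000044748.8, chromosome 8, 22887071 to 22905657, plus strand, 18.6 kb) was between these LADs. In WT a LAD of 11.2 kb covered 37.1% of its span, and in KO no base of it was in a LAD. Exon 1 (22887071 to 22887184, 114 bp, with 61 of the 207 coding bases) was outside LADs in both genotypes. Exon 2 (22904900 to 22905657, 758 bp, with the other 146 coding bases) was wholly inside the LAD in WT and outside in KO. The single intron was covered to 34.6% in WT. The transcription start was 11.7 kb from the nearest LAD in WT and 37.0 kb in KO. It was therefore the 3′ part of the gene, and not its start, that had a LAD in WT.

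The evidence for the *Defb1* LAD is a single short segment. At 11.2 kb it ranked 7720 of 8107 WT LADs by length, where the shortest LAD was 10 kb and the median 40.8 kb. It holds 35 GATC sites, with 68.6% of their ends unique over 36 bases. In WT it stood between gaps of 38.0 and 10.2 kb, and in KO 1 gap of 81.4 kb (22850105 to 22931459) took up nearly all of the stretch between *Defa24* and *Defb50*. *Defb1* was no longer PI when at least 50% of the span was asked for, when only the transcription start was used, or when DRs had to reach 20 kb. With LADs joined across gaps of up to 50 kb, in contrast, *Defb1* was covered to 100% in WT and 0% in KO. The 40 bases across the borders of this stretch are shown on the plus strand, with GATC in capitals, because each is where a segment of the log2 ratio changes.
Right border of the KO LAD before Defb1, chr8:22850085-22850124, plus strand: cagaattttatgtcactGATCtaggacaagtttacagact
Right border of the WT LAD before Defb1, chr8:22860750-22860789, plus strand: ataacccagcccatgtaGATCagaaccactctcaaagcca
Left border of the WT LAD on Defb1, chr8:22898744-22898783, plus strand: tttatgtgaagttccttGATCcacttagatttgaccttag
Right border of the WT LAD on Defb1, chr8:22909951-22909990, plus strand: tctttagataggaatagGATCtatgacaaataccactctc
Left border of the WT LAD after Defb1, chr8:22920186-22920225, plus strand: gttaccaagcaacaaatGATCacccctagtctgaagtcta
Left border of the KO LAD after Defb1, chr8:22931440-22931479, plus strand: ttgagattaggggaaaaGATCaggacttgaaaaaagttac
All 6 borders are at a GATC, as were 99.3% of the 10800 LAD borders on the 4 chromosomes with defensin genes.

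**Figure D4:**
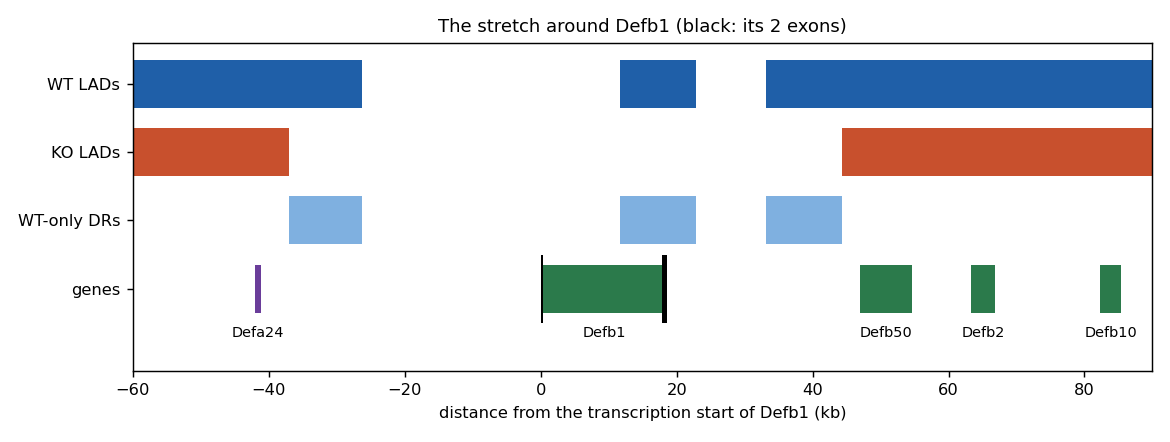
The stretch around *Defb1*, with the distance from its transcription start in kb on the horizontal axis and bars for WT LADs, KO LADs, WT-only DRs and defensin genes (exons of *Defb1* in black). Exon 2 lies in the WT LAD of 11.2 kb, exon 1 does not, and the KO has 1 gap of 81.4 kb there.

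The beta cluster of chromosome 8 was PP throughout, but its LAD was divided in KO. In WT 1 LAD of 755 kb (18942630 to 19697352) held all 14 genes. In KO 6 genes, from *Defb40* to *Defb34*, were in a LAD of 248 kb (18905103 to 19153468) and 8 genes, from *Defb14* to *Defb7*, in one of 641 kb (19162310 to 19803128). The break of 8.84 kb between them holds no defensin gene. It is under the 10 kb minimum of a DR, and 17.6% of all gaps between KO LADs were under 10 kb, so it is no DR. Inside it is *Spag11a*, an epididymal gene related to beta defensins, which was covered to 100% in WT and 0% in KO yet is II by the rule, since it overlaps no DR. Its copy *Spag11b* was PP. With differences of any length *Spag11a* became PI, and with LADs joined across gaps of up to 50 kb it became PP.

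In WT the 14 genes were 32.3 to 351 kb from the border of their LAD. *Defb3* was the deepest in WT, 351 kb from a border, and was 131 kb from one in KO. Next to the break, *Defb34* was 181 kb from a border in WT and 26.9 kb in KO, and *Defb14* 252 and 32 kb. *Defb40* and *Defb37*, at the outer end, were farther from a border in KO (69.8 and 81.1 kb) than in WT (32.3 and 43.6 kb). The distance was shorter in KO for 9 of the 14 genes and longer for 5. Among the latter, *Defb7* was 200 kb from a border in WT and 305 kb in KO, where that border is the edge of an unsequenced stretch.

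Of the genes next to this cluster, 4 had more LAD coverage in KO than in WT, whereas its members, covered to 100% in WT, could not gain any. *Xkr5*, *Agpat5* and *Mcph1*, before the cluster, were IP, with 45.7%, 28.0% and 0% of their spans in LADs in WT and 100%, 100% and 12.8% in KO. *Gm6483*, the next gene after it, was IP with 94.2% in WT and 100% in KO, and *4930467E23Rik* and *Gm15319*, which follow, were PP with 100% in both. After the alpha-beta cluster, *C86695* was II and *Ccdc70* IP (0% in WT, 24% in KO). The sequenced bases of the 1 Mb that follow it were in LADs to 4.41% in WT and 30.3% in KO. Between the clusters of chromosome 8 are 2667 kb, of which 2050 kb are unsequenced, and the sequenced bases were in LADs to 79.5% in WT and 100% in KO.

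On chromosome 1, *Defb18* and *Defb41*, a beta defensin gene of the epididymis, were in the middle of 1 long LAD in each genotype. It was 1606 kb in WT (17587835 to 19194076), ranked 171 of 8107 by length, and 1418 kb in KO (17626222 to 19043824), ranked 9 of 16076. *Defb41* was 653 kb from a border in WT and 615 kb in KO, the deepest place of any defensin gene. The adjacent *Crisp4*, another gene of the epididymis, was PP too. The 1 Mb before and after the pair were in LADs to 99.2% and 96.4% in WT and to 97.3% and 99.1% in KO.

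The 16 II genes were far from LADs. On chromosome 2 the transcription starts of 11 genes were 768 (*Defb23*) to 926 kb (*Defb25*) from the nearest LAD in WT and 240 to 398 kb in KO. The stretch without a LAD around them was 2306 kb in WT and 1603 kb in KO, and the nearest LAD in KO, of 28.3 kb (152022046 to 152050330), was the one that set these distances. The adjacent *6820408C15Rik* and *Rem1*, a small GTPase gene, were II. On chromosome 14 the starts were 1045 (*Defb48*) to 1111 kb (*Defb30*) from a LAD in WT and 542 to 607 kb in KO, in a stretch without a LAD of 3237 kb in WT and 1285 kb in KO. Its last gene *Defb42* was 1108 kb away in WT and 545 kb in KO, and the adjacent *Wdfy2* and *Ctsb*, which encodes cathepsin B, were II. Chromosomes 2 and 14 as a whole were in LADs to 52.7% and 60.2% in WT. The 1 Mb flanks of the clusters there were in LADs to only 4.76% and 0%, so the interior stretches reach beyond the beta defensin genes.

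All 16 II genes were nearer to a LAD in KO. Their median distance was 893 kb in WT and 365 kb in KO. Over all 12518 protein-coding genes without a LAD base, the medians were 415 kb and 133 kb, and 83.7% were nearer in KO, where LADs were more numerous. The 36 members inside LADs had a median distance of their span to the LAD border of 118 kb in WT (3.39 to 653) and 71.9 kb in KO (1.83 to 615). The distance was shorter in KO for 22 of them, longer for 5 and equal for 9, while over all 3512 such genes 69.2% were shorter, 26.6% longer and 4.21% equal, with medians of 142 and 65.0 kb. The 9 equal ones were alpha defensin genes, whose LAD borders are at the assembly gaps. Within 10 kb of a border were 1 member in WT and 4 in KO, and the same count over all genes inside LADs was not made.

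**Figure D5:**
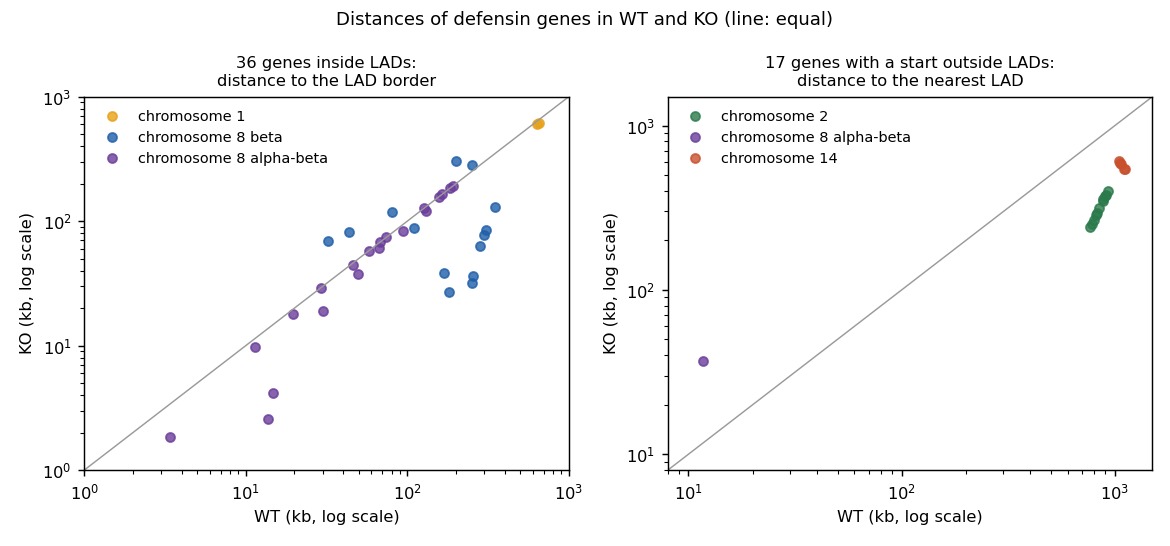
Distances in kb in WT (horizontal axis) and KO (vertical axis), both on log scales, with 1 point per defensin gene and a line of equality. Left, the span of 36 genes inside LADs to the border, with 9 alpha defensin genes on the line; right, the starts of 17 genes outside LADs to the nearest LAD, where 16 genes are below the line and *Defb1* is above it.

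Genes of other antimicrobial proteins fell into 4 of the classes. Of 43 such genes 42 were found in the annotation, of which 11 were PP, 24 II, 1 IP and 6 PI, against 17.9% PP, 56.6% II, 17.1% IP and 5.43% PI of all protein-coding genes. The 1 IP gene was *Ctsg*, the neutrophil protease cathepsin G (0% in LADs in WT, 100% in KO). The PI genes *Retnlb*, *S100a8* and *Dmbt1* went from 100% to 0%, and *Itln1*, *Pglyrp4* and *Ang4* from 100% to 44.4%, 35.9% and 92.8%. *Retnlb* encodes a secreted protein of goblet cells, *Dmbt1* a mucosal glycoprotein that binds bacteria, *S100a8* a subunit of calprotectin, *Itln1* an intestinal lectin, *Pglyrp4* a peptidoglycan recognition protein and *Ang4* a Paneth cell ribonuclease. Like the alpha defensin genes, the gut lectin genes of the *Reg* cluster (*Reg1*, *Reg2*, *Reg3a*, *Reg3b*, *Reg3d* and *Reg3g*) were covered to 100% in both genotypes. They are neighbors on chromosome 6, so these PP genes are not independent. The list also holds *Spag11b* (PP) and *Spag11a* (II, though covered to 100% in WT and 0% in KO), which lie in the beta cluster of chromosome 8. Of 9 genes that process or answer defensins, 3 were PP, 2 II, 2 IP and 2 PI, too few to be read against those shares. *Mmp7*, the protease that activates the alpha defensins of mouse Paneth cells, was PP, and so were the trypsin genes *Prss1* and *Prss3*. *Prss2* (88.5% to 100%) and *Nod2*, a sensor of bacterial cell wall peptides (0% to 23.3%), were IP. The receptor genes *Ccr2* (100% to 0%) and *Tlr4* (100% to 93.8%) were PI. The share of PI and IP genes in these lists and among the defensin genes was not tested.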

How the data were processed

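The deposited lists, 2 of LADs and 2 of DRs, hold positions only. The authors made them by mapping reads to mm9, setting Dam-LaminB1 against Dam only as a log2 ratio for each *DpnI* fragment, and segmenting that ratio with DNAcopy at default settings; the submitters' processing notes name BWA and limma without a role. Depth per region is not in the lists. Repeating the subtraction of the LAD lists with a minimum of 10 kb returned all DRs.

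Genes were the protein-coding genes of the GENCODE annotation of NCBIM37 on 21 chromosomes, classed by an overlap of at least 1 base. Positions are 1-based. Clusters were members at most 500 kb apart. Python 3.11.15, numpy 2.4.6, biopython 1.88 (identity by alignment) and matplotlib 3.10.9 were used. Interval steps were tested on simulated data with 0 errors. No statistical test was possible with 1 library pair per genotype. Members and lists (antimicrobial genes, and genes that process or answer defensins) were chosen with earlier results of these data known. Named were members classed PI, IP or AMB, the first and last member of each cluster, *Defb1*, *Defb41*, the members of each cluster with the largest changes in LAD share, adjacent genes, and PI, IP or AMB genes of the lists; others named for their distance, their sequence or their LAD were chosen after their values were seen.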

Additional observations from a re-analysis of the deposited data

How the results depend on the processing

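With no replicates, a value was taken as unchanged when it stayed within a factor of 1.5. Of 49 recomputed values 44 did, among them class counts that stayed at 0 and values for cluster gaps that left the clusters as they were. The 5 that moved were all counts of PI or IP members. The number of PI members fell from 1 to 0 when at least 50% of the span had to be in a DR, when only the transcription start counted, and with DRs of at least 20 kb; in each case *Defb1* became II. With a window of 100 kb centered on the gene, 5 members were PI (*Defb1*, *Defa24*, *Defb50*, *Defb2* and *Defb10*) and 5 were IP (*Defb40*, *Defb37*, *Defb15*, *Defb35* and *Defb13*), because the window takes in flanking DRs, while 27 stayed PP and 16 II; all of the 9 newly called genes were covered by LADs to 100% in both genotypes. The counts of PI and of IP members are each 9.43% of the members, where the same window calls 9.71% of all protein-coding genes PI and 27.1% IP. PP members numbered 36 under every other setting tried, and II members 16 or 17. In both genotypes the 36 PP genes lie wholly inside LADs and the 16 II genes far outside them. Those other settings could therefore not change their class, and the constancy of these counts was fixed in advance. *Defb1*, with 37.1% of its span in a DR, was PI by necessity with at least 10% of the span and with differences of any length. It was PI too with LADs joined across gaps of up to 50 kb. That joining moved the LAD share of member bases from 53.0% to 58.8% in WT and left it at 49.6% in KO. Cluster gaps of 200 kb or 1 Mb gave the same 5 clusters.

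Depth limits how finely a border can be placed, and the lists give none per region. In the alpha defensin stretch few ends can be placed, and LAD borders there fall on assembly gaps.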

Other observations

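The annotation holds 18 further genes with *Defa* or *Defb* symbols that are not protein-coding, nearly all of them pseudogenes. Of these 17 were PP, 1 on chromosome 1, 4 in the beta cluster and 12 in the alpha-beta cluster of chromosome 8, each covered by LADs to 100% in both genotypes. The other was *Defa-ps11* (chromosome 8, 22859647 to 22860472), a pseudogene between *Defa24* and *Defb1*, which was PI and was covered to 100% in WT and 0% in KO. It lies wholly in the WT-only DR of 10.7 kb at the end of the LAD of the alpha defensin genes, of whose GATC ends 66.7% were unique over 36 bases. In that stretch of chromosome 8 it is the only annotated defensin sequence besides *Defb1* whose LAD share differed between the genotypes.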
